A study of Saccharomyces cerevisiae with 50 samples.

Results

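The experiment mapped the promoters occupied by Swi4p in Saccharomyces cerevisiae with and without its cofactor Swi6p. It comprises 2 of the 30 immunoprecipitations (IPs) of a series of 50 samples, which holds 6 myc-tagged transcription factors. Both IPs were taken from the W303 background with SWI4 carrying c-myc epitopes at its carboxyl end, 1 from the wild-type strain and 1 from a strain in which SWI6 had been replaced by a kanamycin marker. Both strains were grown at 30 °C in rich medium with dextrose to mid-log phase (OD600 of about 0.8) and no step to synchronize the cells is described. The chromatin was fixed with 1% formaldehyde, precipitated with anti-Myc gel and sequenced together with an INPUT sample of each strain. The methods describe separate cultures for wild-type and deletion strains, so differences between the 2 IPs include differences between cultures, and with 1 IP per strain no spread between replicates can be given. Every comparison below is therefore a description of 2 peak lists, without a test. The deletion itself cannot be checked from peak lists. Where Gcn4p and Rtg3p IPs are set beside these, their cultures had been treated with rapamycin before harvest, a step not described for Swi4p.

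The members were taken as all MACS peaks of the 2 IPs. The wild-type list holds 73 peaks and the swi6Δ list 182, of 8486 peaks in all lists of the series. A promoter was called occupied where a peak covered at least 1 bp of the 600 bp upstream of the gene in the R64 annotation, the rule of the study's methods. By this rule 411 of 6430 promoters had a Swi4p peak in either strain. Each peak carries a MACS score, which rises as the P-value of the enrichment falls, starts near 50 in both lists and is often held at 3100. The score depends on sequencing depth, which peak lists do not give. A higher or lower score in 1 list is therefore not by itself a gain or loss of binding. Many peaks are also set side by side by their rank in their own list, with tied peaks sharing a mean rank. The 10 wild-type peaks at 3100 all have rank 5.5.

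Swi4p is the DNA-binding subunit of SBF, the complex that switches on G1 cyclins, cell wall genes and budding genes as cells pass Start, the commitment point late in G1. Swi6p joins Swi4p in SBF and Mbp1p in the related complex MBF, whose known targets are mainly genes of DNA synthesis, and it is brought to DNA by these partners. In vitro, the carboxyl end of Swi4p can mask its own DNA-binding domain, and Swi6p relieves this.

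The label of the wild-type IP was first read against promoters known as SBF targets. CLN1 and CLN2, which encode the G1 cyclins, PCL1, a cyclin of the Pho85p kinase, and CCW12, SRL1 and CWP2, which encode cell wall proteins, all lay under wild-type peaks held at 3100. HO, the endonuclease of mating-type switching and a classical target, had a wild-type peak with a score of 285.4. In the swi6Δ list the scores were 3100 at CLN1, CLN2, PCL1, CCW12 and SRL1 and 3010.23 at CWP2, and HO had no peak. Thus CLN1, CLN2, PCL1, CCW12, SRL1 and CWP2 were at or near the top of both lists. This did not hold for all known targets. HO had a rank of only 47 in the wild type. Of the genes named TOS, for targets of SBF, TOS8 had a peak in swi6Δ only and TOS4 had none in either strain.

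Most promoters occupied in the wild-type strain were also occupied in swi6Δ, and the swi6Δ list added many more. A Swi4p peak was found at 145 promoters in the wild type (2.26% of all promoters) and at 392 in swi6Δ (6.1%). Of these, 126 promoters were occupied in both strains (1.96% of all promoters), which is 86.9% of the wild-type set and 32.1% of the swi6Δ set. Another 19 were occupied in the wild type only (0.295%) and 266 in swi6Δ only (4.14%). Neighbouring promoters often shared a peak. In the wild type 26 peaks covered 1 promoter, 27 covered 2 and 18 covered 3 or more, so promoters are not separate observations.

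The same held for the peaks themselves. Of the wild-type peaks 67 of 73 (91.8%) overlapped a swi6Δ peak, and 67 of 182 swi6Δ peaks (36.8%) overlapped a wild-type peak. Merged over both lists there were 188 regions, of which 67 were found in both strains, 6 in the wild type only and 115 in swi6Δ only. The 135 kb under peaks of both strains made up 86.4% of the bases under wild-type peaks and 32.5% of those under swi6Δ peaks.

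Shared regions ranked high in the swi6Δ list, with a median rank of 37 of 182, though the lowest of them ranked 178. Of the 10 wild-type peaks at 3100, 8 were at 3100 in swi6Δ too. Across the 67 shared regions the score was higher in swi6Δ at 42, lower at 17 and equal at 8, and Spearman's rho between the scores was 0.69 (67 regions of 1 IP each, with several scores held at 3100). The score in swi6Δ was more than 3-fold higher at 18 regions and more than 3-fold lower at 2, those of TOS6 and GIC1.

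**Figure D1:**
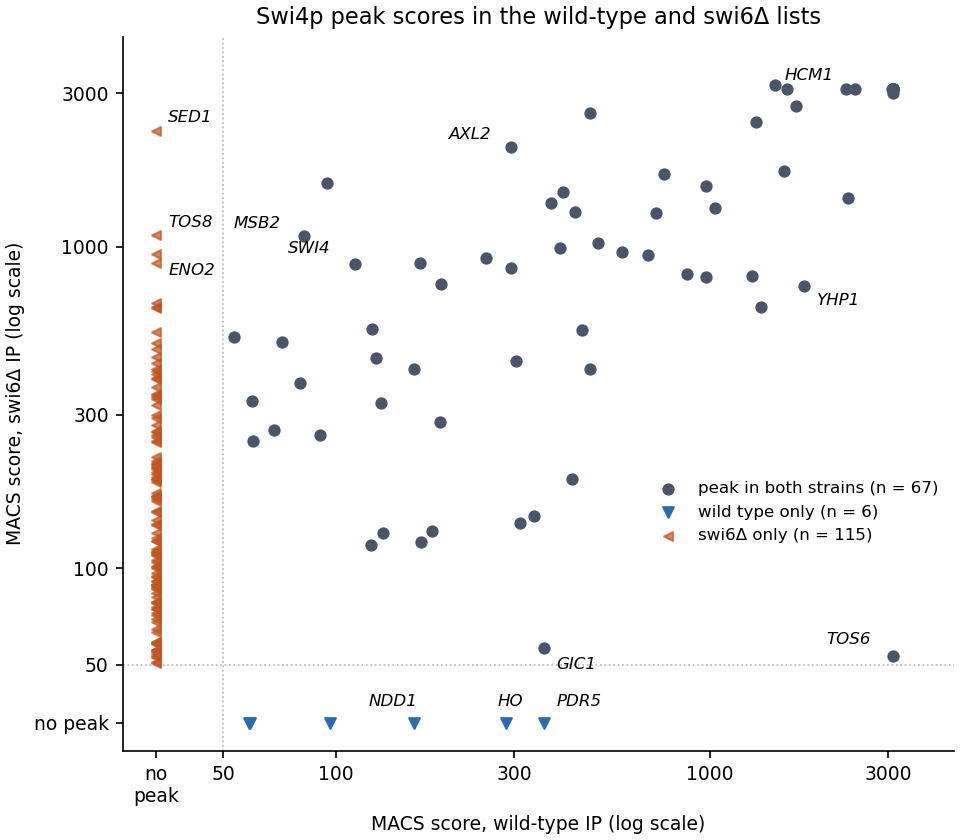
MACS score of each Swi4p peak in the wild-type IP (horizontal, log scale) against the score of the overlapping peak in the swi6Δ IP (vertical, log scale). Points are the 67 shared regions. Triangles on the margins are the 6 wild-type and 115 swi6Δ peaks with no counterpart, and dotted lines mark a score of 50. TOS6 falls from 3100 to 53.23, and SED1, at 2296.98, is the highest swi6Δ peak with no wild-type counterpart.

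The swi6Δ peaks without a counterpart were mostly weak. Their median score was 136 (range 50.62 to 2296.98) with a median rank of 119, against a median score of 925 and a median rank of 37 for the shared swi6Δ peaks. When the swi6Δ list was divided by score into 4 bands of near-equal size, 42 of 46 peaks of the top band (91.3%) overlapped a wild-type peak. The figures were 16 of 46 (34.8%) in the next band, 7 of 45 (15.6%) in the one after it and 2 of 45 (4.44%) in the lowest. In the wild-type list the peaks meeting a swi6Δ peak were 19 of 19, 18 of 18, 15 of 18 and 15 of 18 from the top band to the lowest. Peak widths had a median of 1905 bp in the wild type (1008 to 5699 bp) and 2128 bp in swi6Δ (705 to 8490 bp).

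**Figure D2:**
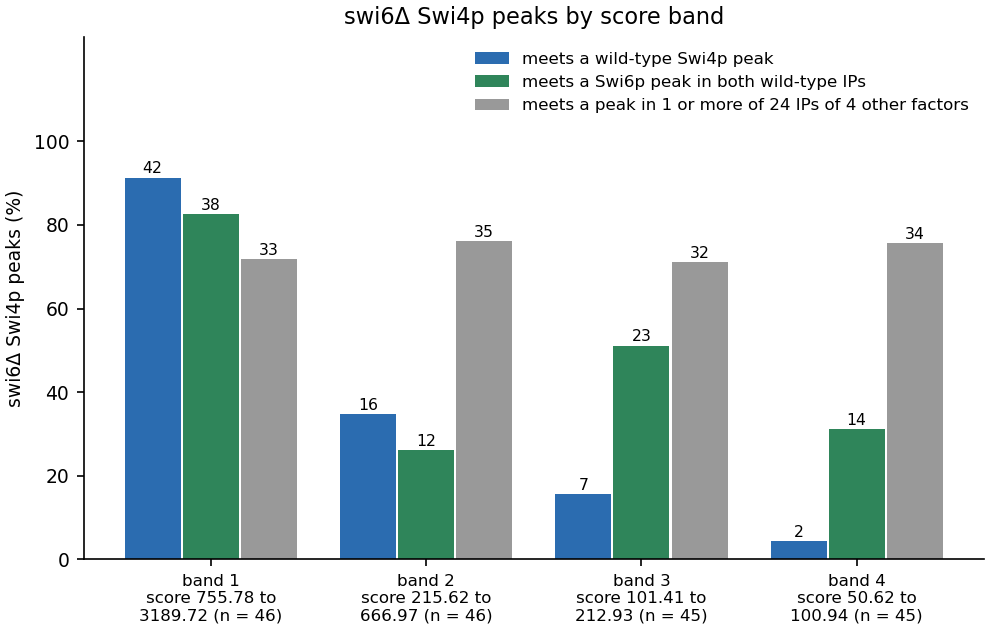
Swi4p peaks of the swi6Δ IP in 4 bands by MACS score (horizontal) and the percentage of each band (vertical) that overlaps a wild-type Swi4p peak, a Swi6p peak in both wild-type Swi6p IPs, or a peak in 1 or more of 24 IPs of the other 4 factors. Numbers above bars are peaks. Overlap with the wild-type Swi4p list goes from 42 of 46 peaks in the top band to 2 of 45 in the lowest, and overlap with the other 4 factors lies between 32 and 35 peaks in every band.

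Among cyclin genes, 4 of 8 had a Swi4p peak in the wild type and 5 of 8 in swi6Δ, against 2.26% and 6.1% of all promoters. CLN1 lay beside a wild-type peak at chromosome XIII, 660409 to 662708, and a swi6Δ peak at 660832 to 662688 (R64), both at 3100. CLN2 had a wild-type peak at chromosome XVI, 65947 to 68342, and a swi6Δ peak at 64838 to 67963, also both at 3100. PCL1 lay under a broad peak of 5418 bp in the wild type and 4959 bp in swi6Δ, again at 3100 in both. PCL2, another Pho85p cyclin, had a score of 754.71 (rank 27) in the wild type and 1688.55 (rank 21) in swi6Δ. The promoters of the 4 cyclins active around Start therefore kept their peaks, as did 86.9% of all wild-type promoters. They stayed near the top of the swi6Δ list. CLN3, the upstream G1 cyclin that acts on SBF through its repressor Whi5p, had a peak in swi6Δ only, with a score of 246.23 and a rank of 90. The S-phase cyclin genes CLB5 and CLB6 had no Swi4p peak in either strain. Both had Swi6p peaks in the 2 wild-type Swi6p IPs, with scores of 55.37 and 58.83 at CLB5 and 558.12 and 543.54 at CLB6. PCL9 had no Swi4p peak.

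The promoter of SWI4 itself was occupied in both strains. Its wild-type peak at chromosome V, 385820 to 386935, had a score of 112.35 and a rank of 61 of 73, and its swi6Δ peak at 385775 to 387051 had a score of 885.39 and a rank of 40 of 182. This was 1 of 11 genes in the list of Start regulators and of SBF and MBF subunits. The share was 9.09% in each strain, against 2.26% of all promoters in the wild type and 6.1% in swi6Δ. SWI6, MBP1 and the other 8 had no Swi4p peak in either strain.

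Of 13 genes for transcription factors of the G1/S and later waves, 5 had a peak in each strain and 4 in both. The 5 are 38.5% of the list, against 2.26% of all promoters in the wild type and 6.1% in swi6Δ. HCM1, a forkhead activator of S-phase genes, had scores of 2451.82 in the wild type and 3100 in swi6Δ. YOX1 and YHP1 encode homeodomain repressors of the M/G1 wave. The score of YOX1 was 455.69 in the wild type (rank 34) and 552 in swi6Δ (rank 52). That of YHP1 was 1789.01 (rank 15) and 755.78 (rank 46). PLM2, which encodes a protein with a forkhead-associated domain, had 190.03 (rank 50) and 285.34 (rank 80). Another 2 differed in presence. NDD1, an activator of G2/M genes, had a peak in the wild type only (162.17, rank 55), and TOS8, a homeodomain protein gene, in swi6Δ only (1084.21, rank 30).

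Genes for cell wall proteins had a wild-type peak as often as the cyclins, at 50% of the list, against 2.26% of all promoters. All of these kept a peak in swi6Δ, as did 86.9% of all wild-type promoters, though that of TOS6 scored only 53.23. Of the 22 genes, 11 had a peak in both strains and another 4 in swi6Δ only, against 1.96% and 4.14% of all promoters. Peaks were held at 3100 in both strains at CCW12, SRL1 and CSI2. The neighbouring genes HSP150 and CIS3 of the PIR family shared 1 peak in each strain, with a score of 478.9 in the wild type and 2599.78 in swi6Δ. PRY2 went from 398.68 in the wild type to 988.42 in swi6Δ. ECM33 had similar scores of 872.01 (rank 26) and 824.88 (rank 42), as did TOS1 with 479.64 (rank 32) and 417.14 (rank 62). SVS1 had 1299.21 in the wild type and 810.66 in swi6Δ. TOS6 was the exception among these promoters, as described further on.

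The 4 cell wall protein genes with a peak in swi6Δ only were SED1, CWP1, TIP1 and CCW14. SED1 encodes an abundant mannoprotein of the stationary-phase wall. Its swi6Δ peak at chromosome IV, 599095 to 602754, had a score of 2296.98 and a rank of 18. No wild-type Swi4p peak and no wild-type Swi6p peak lay at its promoter. CWP1 adjoins CWP2 and was reached by the same swi6Δ peak, which extended beyond the wild-type peak. TIP1 had a score of 167.99 and CCW14 of 111.44.

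Of 19 genes for enzymes of the cell wall, 8 had a peak in both strains, against 1.96% of all promoters. SIM1, of the SUN family, was at 3100 in both. FKS1, the catalytic subunit of 1,3-beta-glucan synthase, had 2314.87 in the wild type and 3100 in swi6Δ, under peaks of 3611 and 3690 bp. GAS1, a glucanosyltransferase, had 405.22 in the wild type (rank 37) and 1483.14 in swi6Δ (rank 24). The glucanase-like genes SCW4 and SCW10 had 376.64 and 1704.2 in the wild type and 1362.78 and 2747.24 in swi6Δ. The chitin transglycosylase genes UTR2 and CRH1 had 976 and 975.2 in the wild type and 1547.35 and 807.59 in swi6Δ. EXG1, an exoglucanase gene, went from 1370.93 in the wild type to 648.14 in swi6Δ. SUN4 (198.76) and KRE6 (184.98), a gene of beta-glucan synthesis, had a peak in swi6Δ only, and both had Swi6p peaks in the 2 wild-type Swi6p IPs. All 10 enzyme genes with a swi6Δ Swi4p peak had those Swi6p peaks, as did 199 of 392 promoters occupied in swi6Δ (50.8%) and 5.66% of all promoters.

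Among 13 genes of mannosylation and glycosylation, 3 had a peak in both strains and 1 in swi6Δ only. Over all promoters these shares were 1.96% and 4.14%. MNN1, the terminal mannosyltransferase, had 3073.88 in the wild type and 3100 in swi6Δ. MNN5 went from 252.01 (rank 48) to 925.31 (rank 37), and ALG14 from 127.74 (rank 58) to 450.75 (rank 59). OCH1, which starts the outer mannan chain, had 321.14 in swi6Δ only.

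Scores of budding and polarity genes differed in both directions, as over all shared regions (42 higher and 17 lower in swi6Δ). Of 22 members, 5 had a peak in both strains, RSR1 in the wild type only and RAX2 in swi6Δ only. Over all promoters the shares were 1.96%, 0.295% and 4.14%. GIC1 and GIC2 encode paired effectors of Cdc42p. GIC2 had 1329.34 in the wild type and 2439.48 in swi6Δ, while GIC1 had 360.28 in the wild type (rank 41) and 56.35 in swi6Δ (rank 171). MSB2, a mucin of the osmosensing pathway, had 82.24 in the wild type (rank 65) and 1078.68 in swi6Δ (rank 31). AXL2, a marker of the axial bud site, had 294.09 (rank 45) and 2036.5 (rank 19). BUD9 had 90.95 (rank 64) and 259.2 (rank 86).

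Of 28 genes of DNA synthesis and repair, 2 had a peak in the wild type (7.14%, against 2.26% of all promoters) and 3 in swi6Δ (10.7%, against 6.1%). MCD1, a cohesin subunit, had 134.09 in the wild type (rank 56) and 128.74 in swi6Δ (rank 121). CDC6, the origin licensing factor, had 162.26 (rank 54) and 417.07 (rank 63). RNR1, the large subunit of ribonucleotide reductase, had 191.39 in swi6Δ only. These 3 promoters had Swi6p peaks in both wild-type Swi6p IPs, with scores from 270.86 at CDC6 to 535.89 at MCD1. Another 5 members had Swi6p peaks in both IPs and no Swi4p peak in either strain, namely POL30, DUN1, ASF1, CDC45 and RFA2. In all, 8 of 28 members had Swi6p peaks in both IPs, against 5.66% of all promoters.

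**Figure D3:**
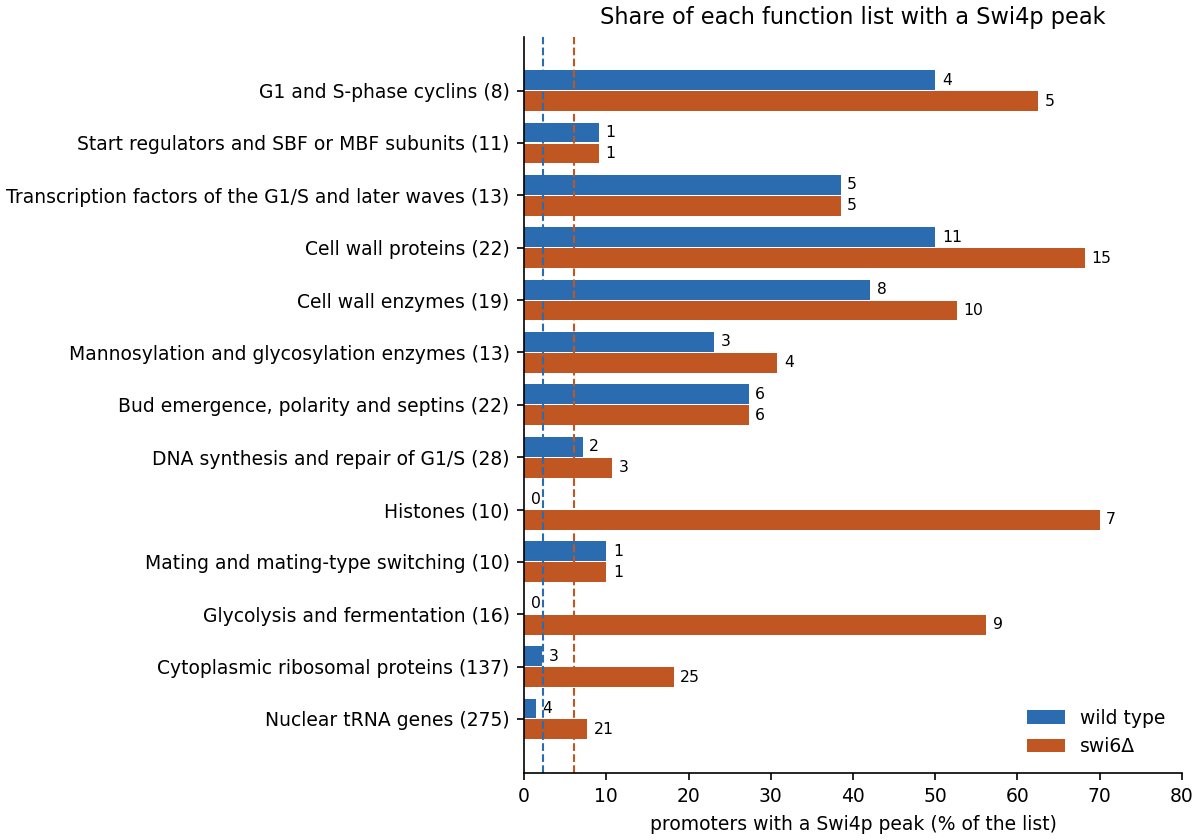
Share of the promoters of each function list with a Swi4p peak (horizontal, % of the list, starting at 0) in the wild-type IP and the swi6Δ IP. List sizes are in parentheses, numbers beside bars are promoters, and dashed lines give the share of all promoters, 2.26% in the wild type and 6.1% in swi6Δ. Cyclins and cell wall lists are high in both IPs, and histones and glycolysis have bars in swi6Δ only.

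The 19 wild-type-only promoters lay under 10 peaks, and only 6 of those peaks had no swi6Δ counterpart. That of HO was the only one to cover a single promoter. It lay at chromosome IV, 48037 to 49403, or from -1372 to -6 bp of the start of HO, and ranked 47 of 73. The HO promoter also had peaks in both wild-type Swi6p IPs, with scores of 125.57 and 71.63, and none in the 24 IPs of the other 4 factors. The peak of NDD1 and of its neighbour NUD1, a spindle pole body gene, at chromosome XV, 1036098 to 1037237, likewise had both Swi6p peaks, which at NDD1 scored 74.92 and 50.77. Another peak covered ATG40, SLP1 and PDR5, a drug efflux transporter. It was the widest wild-type peak, at 5699 bp, with a score of 360.57 and a rank of 40. The other 3 were weaker. They lay at RSR1 with YGR153W and a tRNA gene (96.61), at the ceramide synthase gene LAC1 with CAP1 (58.91), and at ACM1, an inhibitor of the anaphase-promoting complex, with DIM1 (58.64).

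The remaining 6 wild-type-only promoters lay under 4 wild-type peaks that did meet a swi6Δ peak. There the swi6Δ peak was narrower and did not reach these promoters. They were RPP1 beside GIC1, SSL2 and CCT2 beside AXL2, TRF5 beside TOS6, and RFC3 and SEC21 beside PCL1. At these 6 a peak remained nearby and its extent changed. The peaks of TRF5 and RPP1 also fell in score, from 3100 to 53.23 and from 360.28 to 56.35.

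The largest loss of rank was at TOS6, a cell wall protein gene that shares its peak with the divergent gene RPL18B. The wild-type peak at chromosome XIV, 64706 to 66514, had a score of 3100. The swi6Δ peak at 64821 to 65893 had a score of 53.23 and ranked 178 of 182. The 2 wild-type Swi6p IPs had scores of 2323.59 and 1985.37 at the TOS6 promoter. It was the only wild-type peak at 3100 with a swi6Δ score under 3010.23. GIC1 followed, with Swi6p scores of 372.05 and 369.33. To compare lists of unequal length, each rank was also divided by the length of its list. This percentage, which is low for a high rank, falls for most shared peaks because the swi6Δ list holds 115 further and mostly weak peaks, so it makes gains look larger and losses smaller. On this scale SFG1 went from 49.3% to 56%, the B-type cyclin gene CLB1 from 57.5% to 63.2%, PMA1 with BRP1 and YGL007C-A from 58.9% to 64.3%, and YHP1 with PPN1 from 20.5% to 25.3%. Their scores in the wild type and in swi6Δ were 429.67 and 189.95 at SFG1, 338.3 and 145.5 at CLB1, and 310.06 and 138.26 at PMA1. EXG1, with a score of 1370.93 in the wild type and 648.14 in swi6Δ, went from rank 20 to rank 48 and yet from 27.4% to 26.4% of the list.

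The largest gains in rank percentage, a scale that makes gains look larger, were at SKM1, a kinase gene of the PAK family, and the adjoining PTH4. Their shared peak had a score of 94.69 in the wild type (rank 63) and 1574.96 in swi6Δ (rank 22), or from 86.3% to 12.1% of the list. MSB2 followed (89% to 17%), then YEF3, encoding a translation elongation factor, with SSP120 (100% to 29.7%), SWI4 with LSM4 (83.6% to 22%), SUT2 (91.8% to 30.2%), GIN4, a kinase gene of the septin pathway (95.9% to 41.2%), and ADE17 with its neighbours (80.8% to 28%). In plain rank SUT2 went from 67 to 55, ADE17 from 59 to 51 and GIN4, with no gain, from 70 to 75. No Swi6p peak lay at SKM1, PTH4, MSB2 or SUT2 in either wild-type Swi6p IP, whereas SWI4, LSM4, YEF3 and SSP120 had one in both.

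**Figure D4:**
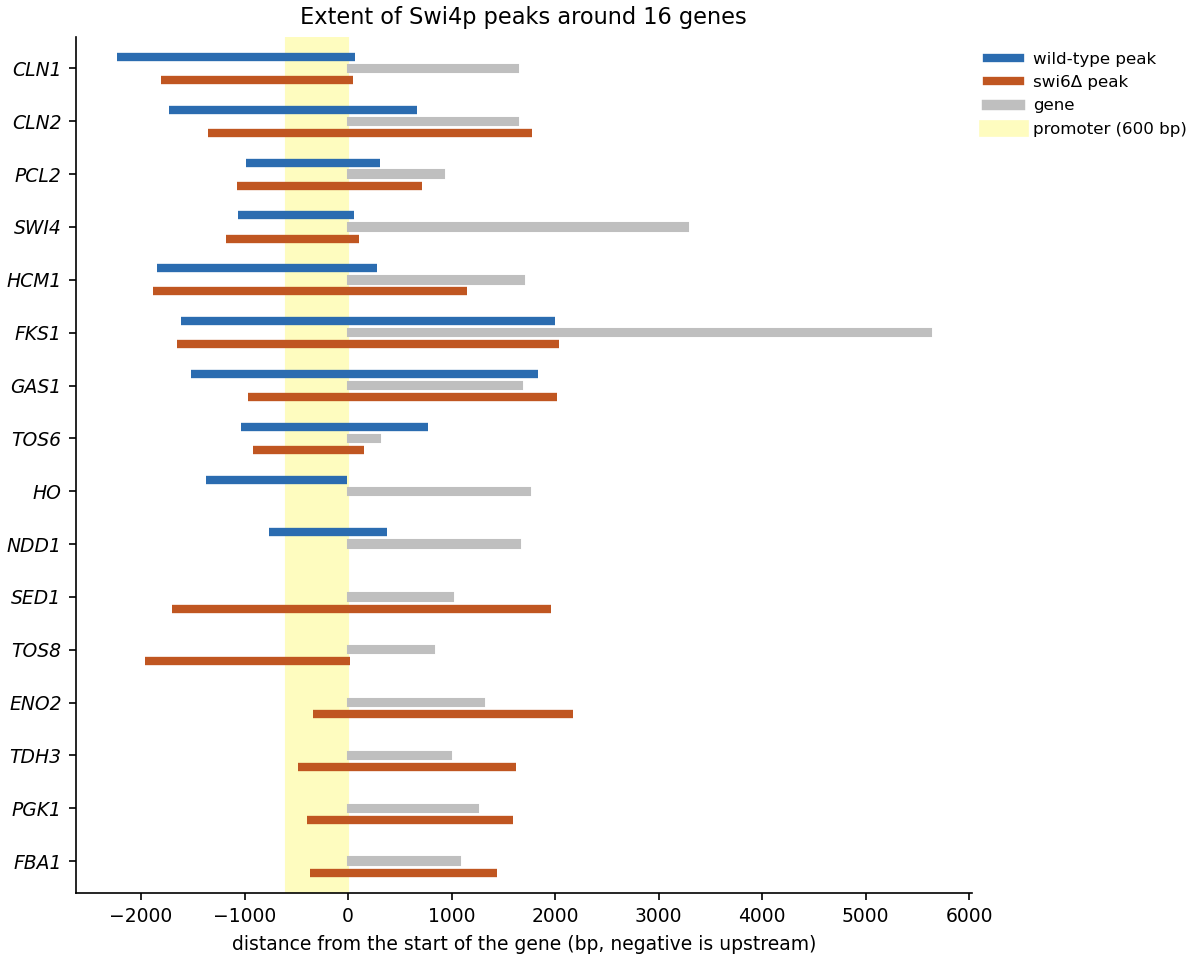
Extent of the Swi4p peaks around 16 genes (vertical) as distance from the start of the gene in bp (horizontal, negative is upstream). Blue bars are wild-type peaks, orange bars swi6Δ peaks, grey bars genes, and the shaded band the 600 bp promoter. Peaks of CLN1, SWI4 and HO lie upstream of the gene, and those of ENO2, TDH3, PGK1 and FBA1, present in swi6Δ only, are centred on the gene.

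Of the 266 promoters occupied in swi6Δ only, 255 lay under swi6Δ peaks with no wild-type counterpart. The other 11 lay under 9 peaks that met a wild-type peak, and these include the highest ranks of the group. POG1, a gene of recovery from pheromone arrest, was reached by the 4327 bp peak of SIM1 (3100), CWP1 and YJU2 by the peak of CWP2 (3010.23), and PIR5 by the peak of HSP150 and CIS3 (2599.78). LGE1 (1421.63) ranked 25. Of the peaks with no counterpart, that of SED1 and PET100 ranked 18 and TOS8 ranked 30. The peak of ENO2 with CTR2, YHR173C and YHR175W-A ranked 35 (945.79). TAL1 with ILV5, genes of transaldolase and of branched-chain amino acid synthesis, ranked 38 (890.09). UTH1 with SHB17, UIP5 and YKR041W ranked 47 (666.97), and MGA1 ranked 49 (647.84). Of the 24 IPs of the other 4 factors, 6 had a peak overlapping that of SED1 and 13 that of TOS8. The numbers were 7 at ENO2, 6 at TAL1, 5 at UTH1 and 7 at MGA1. Over all swi6Δ peaks with no counterpart the median was 2.

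At glycolytic and fermentative genes the peaks were centred on the gene. None of 16 had a wild-type peak, which for so short a list is near the 2.26% of all promoters. In swi6Δ 9 had a peak (56.2%, against 6.1% of all promoters). They were ENO2 (945.79), CDC19 (543), FBA1 (365.3), TDH3 (339.57), PGK1 (255.57), TPI1 (212.93), PDC1 (150.67), ADH1 (128.47) and HXK2 (114.95). These genes are among the most highly transcribed in cells grown on dextrose. In all 9 the middle of the peak lay inside the gene, 426 to 920 bp past its start, and the peak covered the whole gene. With the middle base of the peak as the criterion, 0 of 9 remained. Peaks centred on the gene were not limited to this list. The middle of the swi6Δ peak also lay inside the gene at 6 of 10 occupied cell wall enzyme genes and at 2 of 5 occupied cyclin genes, CLN2 and PCL1, and at none of the 5 occupied transcription factor genes of the G1/S and later waves. The middle of the swi6Δ peak lay inside the gene it was assigned to at 22 of 126 promoters occupied in both strains (17.5%). Over promoters occupied in swi6Δ only the figure was 60 of 266 (22.6%). In these shares a peak over several promoters counts once for each. Counted by peak, the middle lay between genes at 41 of 67 shared swi6Δ peaks (61.2%) and at 48 of 115 others (41.7%). The middle of most swi6Δ peaks with no counterpart thus lay in a gene. Of the 9 glycolytic promoters, 2 had a peak in any IP of the other 4 factors and 5 had one in at least 1 wild-type Swi6p IP. Over all 392 promoters occupied in swi6Δ, 66.3% had a peak of the other 4 factors and 38% had no Swi6p peak.

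Histone genes also had peaks in swi6Δ only. That none of 10 had a wild-type peak is, for so short a list, near the 2.26% of all promoters. In swi6Δ 7 had a peak (70%, against 6.1% of all promoters), in 4 peaks of modest score. The divergent pair HTA1 and HTB1 shared a score of 205.98, HHT2 and HHF2 shared 113.29, and HHT1 and HHF1 shared 71.47. HTZ1, the gene of the variant H2A.Z, had 202.69. With as many swi6Δ peaks as the wild-type list holds, 0 of the 7 remained. Of the 7 promoters, 5 had a peak in at least 1 of the 24 IPs of the other 4 factors. This is near the share of all swi6Δ promoters (260 of 392, 66.3%).

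Ribosomal protein genes had a peak at 3 of 137 promoters in the wild type (2.19%, against 2.26% of all promoters) and at 25 in swi6Δ (18.2%, against 6.1%). The 3 wild-type promoters were RPL18B beside TOS6, RPL37B beside PLM2 and RPL15B beside ADE17. In swi6Δ the 25 promoters lay under 21 peaks with scores from 53.23 to 553.18. RPS3 (479.81), RPL8A (436.02) and RPL28 (409.63) were the highest of the 22 found in swi6Δ only. At a score of at least 200 the swi6Δ count was 8, and with the middle base as the criterion it was 6. Of the 25, 18 also had a peak in an IP of the other 4 factors, near the share of all swi6Δ promoters (260 of 392, 66.3%). Nuclear tRNA genes had a peak at 4 of 275 promoters in the wild type (1.45%) and at 21 in swi6Δ (7.64%). Both shares are near those of all promoters (2.26% and 6.1%). For tRNA genes the swi6Δ count was 6 at a score of at least 200 and 2 with the middle base as the criterion.

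Peaks of the wild-type Swi6p IPs marked the promoters occupied in both strains more often than the rest. Both Swi6p IPs had a peak at 364 of all promoters (5.66%). The figure was 96 of the 126 promoters occupied by Swi4p in both strains (76.2%), 6 of the 19 wild-type-only promoters (31.6%) and 103 of the 266 swi6Δ-only promoters (38.7%). Promoters with no Swi6p peak in either IP made up 14.3%, 26.3% and 49.2% of these groups, and 90.1% of all promoters. Among swi6Δ peaks with no wild-type Swi4p counterpart, 38 of 115 (33%) overlapped a Swi6p peak of both wild-type IPs. Those 38 therefore lie where Swi6p was called in wild-type cells and Swi4p was not. Because the depths of the IPs are unknown, absence from the wild-type Swi4p list is absence of a call, not of binding.

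Peaks of unrelated factors were also frequent at these promoters. The Gcn4p and Rtg3p cultures, unlike those of Swi4p, had been treated with rapamycin. At least 1 of the 24 IPs of Gcn4p, Rtg3p, Nrg1p and Sut1p had a peak at 44.9% of all promoters, at 61.9% of those occupied by Swi4p in both strains, at 47.4% of the wild-type-only and at 68.4% of the swi6Δ-only promoters. The median number of such IPs was 1, 0 and 2 in the 3 groups and 0 over all promoters. Sut1p in the wild type had a peak at 36.5% of the shared and 34.2% of the swi6Δ-only promoters, against 17% of all. Sut1p in nrg1Δ had one at 39.7% and 39.5%, against 25.7%. Gcn4p had one at 19.8% and 25.9% in the wild type, against 17.6% of all, and at 12.7% and 24.4% in rtg3Δ, against 15.4%. Rtg3p had one at 6.35% and 10.5% in the wild type, against 8.02%, and at 4.76% and 4.14% in gcn4Δ, against 4.51%. Nrg1p had one at 1.59% and 5.26% in the wild type, against 1.56%, and at 7.14% and 8.65% in sut1Δ, against 1.37%. Shared promoters were thus above the share of all promoters for Sut1p in both strains and for Nrg1p in sut1Δ. They were near or below it for the others, including Gcn4p in the wild type (25 of 126). The swi6Δ-only promoters were above it for the same IPs, for Gcn4p in both strains and for Nrg1p in the wild type. For Rtg3p they were at 10.5% against 8.02% in the wild type and near it in gcn4Δ. The part of such regions in the swi6Δ list was not tested. Among promoters with no peak in any of these 24 IPs, an alternative chosen after the data were seen, 58 had a Swi4p peak in the wild type and 132 in swi6Δ, and 48 had one in both.

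**Figure D5:**
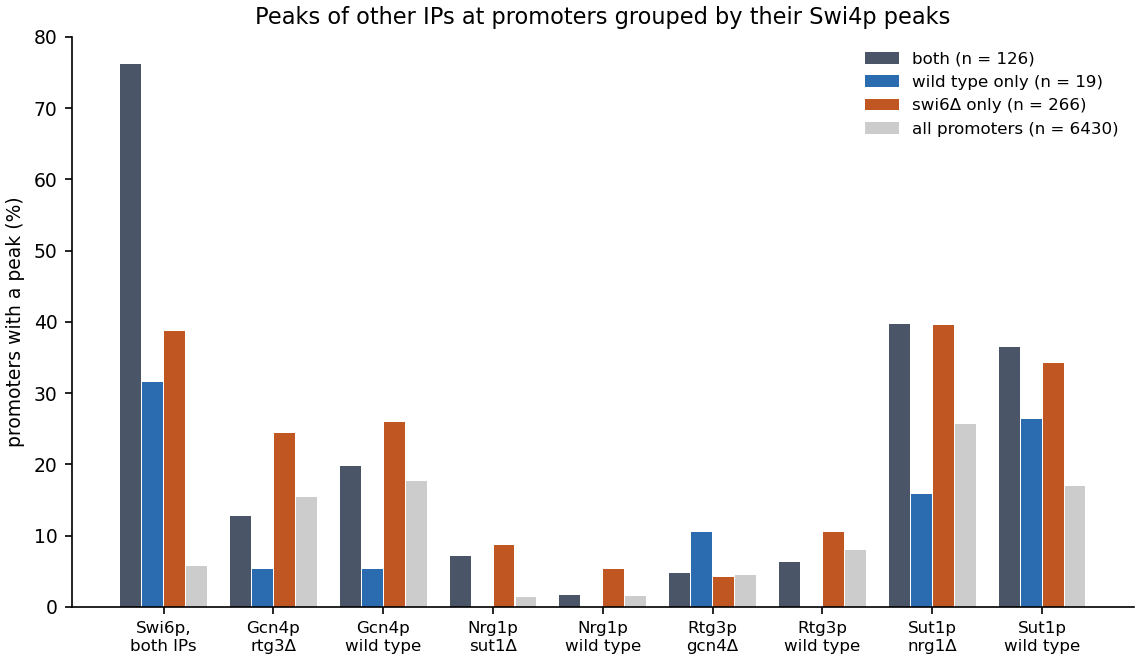
Percentage of promoters (vertical, starting at 0) with a peak in both wild-type Swi6p IPs, or in at least 1 IP of another factor and strain (horizontal), for promoters with a Swi4p peak in both strains, in the wild type only or in swi6Δ only, and for all promoters. Swi6p peaks lie at 76.2% of the shared promoters and 5.66% of all, and Sut1p peaks are about as frequent at shared as at swi6Δ-only promoters.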

How the data were processed

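The authors aligned single reads of 42 bases, from fragments of 200 to 600 bp amplified by 15 PCR cycles, with Novoalign 2.07.0, kept unique alignments and called peaks with MACS 1.4.0rc2 in each IP against INPUT. CASAVA 1.8 is also named. Versions and the R64 build are per the submitters' processing notes. Scores, the only values deposited beside positions, are those the authors obtained from MACS. The lists hold no reads, so depth is unknown, and no interval or detection limit is given.

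From the peaks, counted from 1, overlaps with the 600 bp upstream of 6430 genes were computed. Strand was read from systematic names, which 1 of 6431 nuclear genes lacks. In the Swi4p lists 1 peak start below the first base was set to the chromosome start. A promoter under several peaks took the best score. Overlap functions were tested on simulated data. The members and function lists were chosen with earlier results of these data known. RPP1, an RNase P gene, was left out of the ribosomal proteins. Named promoters are members of the function lists with a peak, SWI4, SWI6, MBP1 and all wild-type-only promoters. Also named are the 15 best ranks of each list, the 20 best swi6Δ-only ranks, and the 10 largest gains and losses of rank percentage. Of these groups the text gives the main members. List members without a Swi4p peak, other TOS genes, RPS3, RPL8A, RPL28 and peaks outside promoters were named after their values were seen. Alternatives were other score minimums, overlaps, promoter lengths, gene sets and numbers of peaks. The 16 genes drawn with peak extents were also chosen that way. No sequence was searched. Tools were Matplotlib 3.10.9, pandas 2.3.3, SciPy 1.17.1, NumPy 2.4.6 and Python 3.11.15.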

Additional observations from a re-analysis of the deposited data

How the results depend on the processing

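The division of promoters depended most on which part of a peak had to lie in the promoter and on the number of swi6Δ peaks. When the middle base of the peak had to lie in the promoter, 54 promoters were occupied in the wild type, 91 in swi6Δ, 37 in both and 54 in swi6Δ only, so that 68.5% of the wild-type set and 40.7% of the swi6Δ set were shared. With as many top swi6Δ peaks as the wild-type list holds, 160 promoters were occupied in swi6Δ, 51 in swi6Δ only and 36 in the wild type only, and the shared part was 75.2% of the wild-type set and 68.1% of the swi6Δ set. At a score of at least 200, 213 were occupied in swi6Δ, 123 of them in swi6Δ only, and 42.3% of the swi6Δ set was shared. At a score of at least 100 the shared part of the swi6Δ set was 37.8%. Among promoters without a peak of the other 4 factors, an alternative chosen after the data were seen, 58 were occupied in the wild type, 132 in swi6Δ, 48 in both, 10 in the wild type only and 84 in swi6Δ only. The other 42 values stayed within 1.5 times the main count or within the 95% Wilson interval of the main share, which covers counting only. For members of function lists 157 values stayed within 1.5 times and 51 did not. No paired analysis was possible because each strain has 1 Swi4p IP. For the same reason no replicate could be left out. The planned search for SBF and MBF elements in peaks was not run, as no genome sequence was used here.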

Other observations

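Genes named TOS, for targets of SBF, were looked at after their values were seen. Of the 7 in the annotation, 5 had a Swi4p peak in both strains. TOS3, a kinase gene, shared a peak with MPT5, a gene for an RNA-binding protein of the PUF family, which was the highest of the swi6Δ list at 3189.72 and had a score of 1496.98 (rank 19) in the wild type. TOS2 had 501.47 in the wild type (rank 31) and 1026.1 in swi6Δ (rank 32), and TOS7 had 583.98 (rank 30) and 965.66 (rank 34). TOS1 and TOS6 are described above. TOS8 had a peak in swi6Δ only, with no Swi6p peak at its promoter in either wild-type IP. Its swi6Δ peak overlapped peaks in 13 of the 24 IPs of the other 4 factors. At the TOS8 promoter itself 3 of these IPs had a peak. Whether the swi6Δ peak reflects a gain of Swi4p was not tested. TOS4 had no Swi4p peak, and 1 of the 2 Swi6p IPs had a peak there with a score of 225.82.

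A few peaks touched no promoter. There were 2 of 73 in the wild type and 10 of 182 in swi6Δ, and 2 regions appear in both lists. The first, on chromosome III at 28096 to 29704 in the wild type (180.39) and 28205 to 29692 in swi6Δ (130.11), also had peaks in 11 of the 24 IPs of the other 4 factors. The second, on chromosome XI at 7572 to 8579 in the wild type (68.31) and 7495 to 8572 in swi6Δ (268.4), had none in those IPs and none of Swi6p. The widest swi6Δ peak, of 8490 bp, spanned PMA1, the gene of the plasma membrane proton pump, with LEU1, SCL1, BRP1 and YGL007C-A, and its score was 138.26.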
